A study of Mus musculus with 8 samples.

Results

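Interferon-stimulated genes were followed as a module of 41 named genes, each taken from the non-control probes whose gene name on the array equals the member's symbol. All 41 were represented among 28146 gene names, and 36 were among the 19193 genes with a channel well above background on at least 2 of 8 arrays. Oas1g, Ifi44, Gbp3, Iigp1 and Cxcl9 did not reach that level and are counted only as dim. In the organoids the module did not move as a block, as members lay on both sides of the control on every array. Ifitm3, Oas1a, Cxcl10 and Socs1 differed from the control by 2-fold or more on single arrays, and the other 32 members that passed the filter did so on none. Of all genes, 0.704% to 3.46% did so on an array of modified organoids. No member passed the limma test in the only condition that was replicated, Ascl2 overexpression, either across 3 arrays or within experiment 1. Of all genes, 0.0938% and 0.901% did. The replicates of experiment 1 may be technical, and Ifitm2 and Oasl2 passed within it under some alternative settings.

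The organoids are epithelial cultures grown from mouse small-intestinal crypts, and each 2-colour array set the RNA of a modified culture (its own RNA) against that of a control culture. In experiment 1, organoids labelled as Ascl2 transduced were set against VillinCreERT2 organoids on 2 arrays, with the dyes swapped on replicate 2, and the labels give RNA extraction after 24 h. In experiment 2, organoids labelled Ascl2 over expressing, Tcf7l2null, and Tcf7l2null/Ascl2 over expressing had 1 array each against dsGFP transduced organoids. In experiment 3, organoids labelled Ascl2null had 1 array against VillinCreERT2 organoids. Experiments 2 and 3 each added a self-self array with control RNA in both colours, which shows the technical background. 4OH-tamoxifen, which switches on CreERT2, was given for 16 h to all cultures, controls included, and the labels name the CMV promoter as the driver of Ascl2 in experiment 1. The description of the experiment 3 self-self control names a floxed Ascl2 genotype where its genotype field gives VillinCreERT2, and the genotype field was used. The sources used here do not give ages, strains or the number of animals behind a culture.

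Interferons act through surface receptors and JAK kinases on transcription factors, among them STAT2 and IRF9, whose complex binds the interferon-stimulated response element in target promoters. The gamma-activated site is another element, used mainly in the response to interferon gamma. The targets include sensors of viral RNA, enzymes and membrane proteins that block viral entry or replication, GTPases of cell-autonomous defence, chemokines, and inhibitors that end the signal. Gut epithelial cells respond to type III interferon in particular. Some Ifitm genes are also known as targets of beta-catenin in mouse intestine. Ascl2 is a basic helix-loop-helix factor of crypt base stem cells, and Tcf7l2 is the main partner of beta-catenin there.

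The probes for the manipulated genes did not settle the labels. The single Ascl2 probe had log2 ratios of own RNA over control of -0.32 and 0.13 on the arrays of experiment 1, -0.78 in the organoids labelled Ascl2 overexpressing in experiment 2, -1.02 with Tcf7l2 null, and -1.11 in the organoids labelled Ascl2 null, against -0.00 and -0.26 on the self-self arrays. No array with an overexpression label thus had a clearly raised Ascl2 signal. The mean of 3 Tcf7l2 probes was -0.23 where the label gives Tcf7l2 null and -0.08 where it gives Tcf7l2 null with Ascl2 overexpression, against -0.03 in the self-self control of that slide. The sources used here do not give which parts of either transcript the construct carries or the deletion removes, so a probe outside them checks nothing, and every direction below rests on the labels. The share of spots well above background was 53.8% to 67.4% in Cy5 and 50.1% to 61.1% in Cy3, and no spot was saturated. Of the 14 leukocyte markers, 8 to 12 in the own RNA and 7 to 11 in the control RNA were well above background, with summed intensities of 1339 to 2497 in the own RNA and 1320 to 2026 in the control RNA. The 7 epithelial markers summed to 343293 to 470955 in the own RNA and 261719 to 391395 in the control RNA. Cd3g and Emr1 were above background in no channel, and the median ratio of the leukocyte markers lay between -0.07 and 0.02 on all arrays. In whole cultures, fewer cells of a type and less RNA per cell cannot be told apart.

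Of the 41 members, 25 had 1 probe and 16 had several, with 4 at most. In both colours of all 8 arrays 23 members were well above background. On single arrays 24 to 34 of the 41 were measured above background in both channels, with the most on the arrays of experiment 3. A ratio is on the log2 scale throughout, as own RNA over control, so that 1 is a doubling and -1 is a halving, and a member's value is the mean of its probes. Paired values of experiment 1 are those of replicates 1 and 2, and paired self-self values are those of experiments 2 and 3. Where 3 values are given for experiment 2, they are those of Ascl2 overexpression, Tcf7l2 null, and Tcf7l2 null with Ascl2 overexpression.

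The promoters of the 4 members that reached 2-fold on an array are shown first, because each window holds a match to the core of the interferon-stimulated response element. RefSeq's promoter table for GRCm38.p6 matched 33 of the 41 members by symbol, and each window runs from 250 bases before to 50 bases after an annotated start, here on the strand of the gene. The motifs marked, searched on both strands, were the core of the interferon-stimulated response element (GAAANNGAAA) and the gamma-activated site (TTCNNNGAA, its own reverse complement). Matches of these motifs are in capitals. CAGCTG was also searched and is left in lower case. The windows are chr7:141010695-141010994 for Ifitm3, chr5:120907476-120907775 for Oas1a, chr5:92348840-92349139 for Cxcl10 and chr16:10785487-10785786 for Socs1, all on the minus strand.
Ifitm3 promoter: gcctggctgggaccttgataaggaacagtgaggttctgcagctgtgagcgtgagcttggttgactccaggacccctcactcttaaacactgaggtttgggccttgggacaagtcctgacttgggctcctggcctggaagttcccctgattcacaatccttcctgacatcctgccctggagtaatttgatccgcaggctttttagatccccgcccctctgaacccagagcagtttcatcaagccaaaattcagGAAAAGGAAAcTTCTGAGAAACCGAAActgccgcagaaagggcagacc
Oas1a promoter: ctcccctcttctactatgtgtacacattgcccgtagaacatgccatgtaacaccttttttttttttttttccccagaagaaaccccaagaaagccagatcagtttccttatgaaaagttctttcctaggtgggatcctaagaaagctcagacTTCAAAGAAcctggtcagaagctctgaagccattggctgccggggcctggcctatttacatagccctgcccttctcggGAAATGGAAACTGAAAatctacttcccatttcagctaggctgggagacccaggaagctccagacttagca
Cxcl10 promoter: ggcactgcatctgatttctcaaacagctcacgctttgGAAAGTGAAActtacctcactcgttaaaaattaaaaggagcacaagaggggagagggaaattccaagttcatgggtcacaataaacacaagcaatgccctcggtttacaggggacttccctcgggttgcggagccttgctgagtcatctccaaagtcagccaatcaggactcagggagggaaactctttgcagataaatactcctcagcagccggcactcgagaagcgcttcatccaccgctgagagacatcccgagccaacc
Socs1 promoter: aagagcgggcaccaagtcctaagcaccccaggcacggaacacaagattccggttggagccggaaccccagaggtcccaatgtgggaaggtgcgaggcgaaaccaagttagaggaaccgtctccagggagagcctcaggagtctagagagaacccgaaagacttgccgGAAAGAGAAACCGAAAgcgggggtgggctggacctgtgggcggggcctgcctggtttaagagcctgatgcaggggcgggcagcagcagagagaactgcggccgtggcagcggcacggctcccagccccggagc
In the Ifitm3 window 2 matches of GAAANNGAAA stand on either side of 1 match of TTCNNNGAA, which overlaps the second of them, and 1 match of CAGCTG, a form of the E-box that basic helix-loop-helix factors bind, is left in lower case. The other 3 windows hold no CAGCTG. Oas1a has 2 matches of GAAANNGAAA that overlap each other and, upstream, 1 of TTCNNNGAA. Cxcl10 has 1 match of GAAANNGAAA, and Socs1 has 2 that overlap each other. A window with GAAANNGAAA was found for 20 of the 33 matched members (60.6%), against 3.99% of all 27025 genes in the table. TTCNNNGAA was found for 9 of 33 members (27.3%), against 9.55% of all genes. CAGCTG was found for 8 of 33 members (24.2%), against 18.3% of all genes. These are matches of letters, not sites shown to be bound.

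Ifitm3, a membrane protein that restricts the entry of enveloped viruses, had the lowest ratio of any member. Its single probe (mm9, chr7:148195591-148195650) was well above background in every channel. Its ratios were 0.20 and 0.34 in experiment 1, -1.09 with Ascl2 overexpression, 0.43 with Tcf7l2 null and -2.63 with both in experiment 2, and -1.01 with Ascl2 null. Both self-self arrays gave 0.14. Ifitm3 was thus well below its control on 3 arrays and slightly above it on the other 3. In normalised intensity it stood at 691 in Tcf7l2 null organoids with Ascl2 overexpression against 4277 in their dsGFP control, and at 9729 in Ascl2 null organoids against 19529 in their VillinCreERT2 control. Those 3 arrays were also the 3 on which none of the 7 crypt base stem cell markers lay above the control. The median ratio of those markers was -1.12 with Ascl2 overexpression in experiment 2, -2.23 with Tcf7l2 null and Ascl2 overexpression, and -0.64 with Ascl2 null, and it was 0.78, 0.32 and 0.59 on the arrays where Ifitm3 lay above its control, where the second of these, replicate 2 of experiment 1, was -0.13 at the lowest over other settings. The part of stem cell content in the Ifitm3 values was not tested.

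Ifitm2, in the same gene cluster as Ifitm3, was higher in experiment 1, at 0.72 and 0.57. It was 0.02 with Ascl2 overexpression in experiment 2, 0.58 with Tcf7l2 null, -0.84 with Tcf7l2 null and Ascl2 overexpression, and -0.51 with Ascl2 null, against -0.05 and 0.02 on the self-self arrays. Ifitm2 and Ifitm3 therefore lay on the same side of the control on 5 of the 6 arrays, although median centring put Ifitm3 at -0.07 on replicate 2 of experiment 1. The 2 Ifitm2 probes differed by at most 0.25 on any array, although the array's annotation places them apart (mm9, chr7:148140912-148140971 and chr7:54087914-54087973). Ifitm1, of the same family, did not share the pattern: it lay between -0.26 and 0.10 on the 6 arrays, against -0.02 and 0.22 on the self-self arrays. Bst2 (tetherin), a membrane protein that holds budding virions at the cell surface, ranged from -0.18 to 0.43, and Rsad2 (viperin), an antiviral enzyme, from -0.56 in Ascl2 null organoids to 0.42 in Tcf7l2 null organoids. Of the 3 Rsad2 probes, the one most often above background gave -1.21 in Ascl2 null organoids and 0.75 in Tcf7l2 null organoids, and the other 2 gave -0.10 and -0.36 in Ascl2 null organoids.

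**Figure D1:**
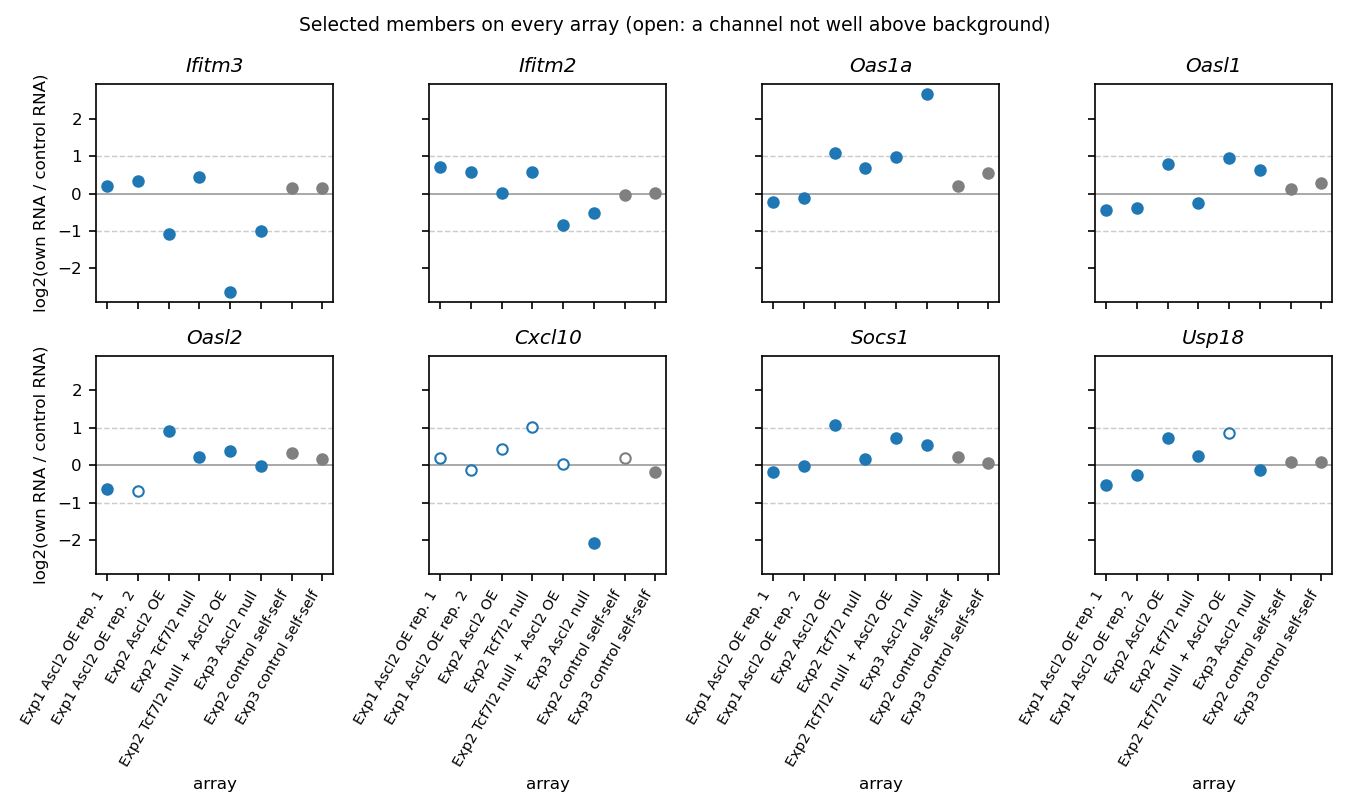
Log2 ratio of own RNA over control RNA (vertical axis) on each of the 8 arrays (horizontal axis) for 8 members, with 1 point per array; blue points are the 6 arrays of modified organoids and grey points the 2 self-self arrays. Open points had a channel not well above background, and dashed lines mark 2-fold; Ifitm3 reaches -2.63 with Tcf7l2 null and Ascl2 overexpression, and Oas1a reaches 2.65 with Ascl2 null.

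The 2'-5' oligoadenylate synthetase family, whose enzymes make the second messenger that activates RNase L, held the highest ratio of the module. Oas1a (mm9, chr5:121348348-121348407) gave -0.22 and -0.13 in experiment 1, 1.09 with Ascl2 overexpression, 0.67 with Tcf7l2 null and 0.98 with both in experiment 2, and 2.65 with Ascl2 null. The self-self arrays gave 0.20 and 0.55, so the probe leaned to Cy5 where the RNAs were the same. Its normalised intensity was 1529 in Ascl2 null organoids against 244 in their VillinCreERT2 control. All 4 single arrays of experiments 2 and 3 exceeded both self-self values. Replicate 1 of experiment 1 lay below them, although median centring put it at 0.34. On replicate 2 the own RNA was in Cy3, so the lean to Cy5 acts the other way there. Less the dye term, its ratio was 0.04. Less the self-self value of the same slide, the ratio in Ascl2 null organoids was 2.10. The mouse genome holds a cluster of closely related Oas1 genes, so RNA of a paralog on this probe cannot be told apart from Oas1a itself. The probe for Oas1g, in the same cluster, was above background in no channel.

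Oasl1 and Oasl2 are relatives of these enzymes with a ubiquitin-like domain. Oasl1, which in mouse restrains translation of Irf7, had ratios of -0.45 and -0.39 in experiment 1, then 0.78, -0.26 and 0.96 in experiment 2, and 0.63 with Ascl2 null, against 0.12 and 0.27 on the self-self arrays. Oasl2 had -0.63 and -0.70 in experiment 1, then 0.91, 0.22 and 0.39 in experiment 2, and -0.03 with Ascl2 null, against 0.33 and 0.16 on the self-self arrays. Both were thus below the control on both arrays of experiment 1 and above it on both arrays of experiment 2 labelled Ascl2 overexpressing, except that median centring in place of loess put Oasl1 at 0.17 on replicate 1. With Tcf7l2 null alone, Oasl1 lay below the control, although median centring put it at 0.05, and Oasl2 lay below its self-self value. Oas2 and Oas3 were dim and lay between -0.31 and 0.10.

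The module holds 2 inhibitors that end the interferon signal. Socs1, which blocks JAK kinases, was -0.19 and -0.02 in experiment 1, 1.07 with Ascl2 overexpression, 0.16 with Tcf7l2 null and 0.73 with both, and 0.55 with Ascl2 null, against 0.22 and 0.06 on the self-self arrays. Usp18, which removes Isg15 from proteins and dampens receptor signalling, was -0.53 and -0.27 in experiment 1, 0.73, 0.25 and 0.86 in experiment 2 and -0.12 with Ascl2 null, against 0.08 and 0.10 on the self-self arrays. In Tcf7l2 null organoids with Ascl2 overexpression the control channel of Usp18 was not well above background. The own RNA was 1.82-fold higher than that dim signal. Both were highest on the 2 experiment 2 arrays labelled Ascl2 overexpressing, while Socs1 with Tcf7l2 null alone lay below its self-self value. Socs3 and Pias1, inhibitors outside the module, stayed near the control in experiment 2, at 0.01, -0.21 and 0.08 for Socs3 and -0.03, 0.09 and -0.05 for Pias1. Among further regulators outside the module, Ptpn2 was 0.45, 0.38 and 0.15 there, and Ptpn6 was 0.30, -0.08 and 0.24. Ptpn11 was -0.62, 0.28 and -0.35. The self-self array of that slide gave 0.27, -0.07 and -0.09 for Ptpn2, Ptpn6 and Ptpn11.

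Cxcl10, a chemokine that draws T cells, had the most uneven signal. It was well above background in both colours only on the arrays of experiment 3, where its ratio was -2.06 in Ascl2 null organoids and -0.17 on the self-self array. In normalised intensity it was 116 in Ascl2 null organoids against 485 in the VillinCreERT2 control. In Tcf7l2 null organoids its ratio was 1.03, at an intensity of 133 against 65.0 in the dsGFP control, where it was not well above background. At these settings Cxcl10 was 2.04-fold higher there than the dim control signal, and 1.36-fold higher with Ascl2 overexpression in experiment 2. The ratio with Tcf7l2 null ran from 0.78 to 2.33 over the alternatives and was past 2-fold in 6 of 11. Neither channel was above background with Tcf7l2 null and Ascl2 overexpression together, and experiment 1 gave 0.19 and -0.13 close to the background. For such folds the dim channel was set at the lowest signal among probes well above background or at its own signal, whichever was higher, after normalisation. For Usp18 and Cxcl10 its own signal was the higher. These folds therefore equal the plain ratios, are not lower limits and are open to dye bias. Cxcl9, a related chemokine, was above background on 1 array only.

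**Figure D2:**
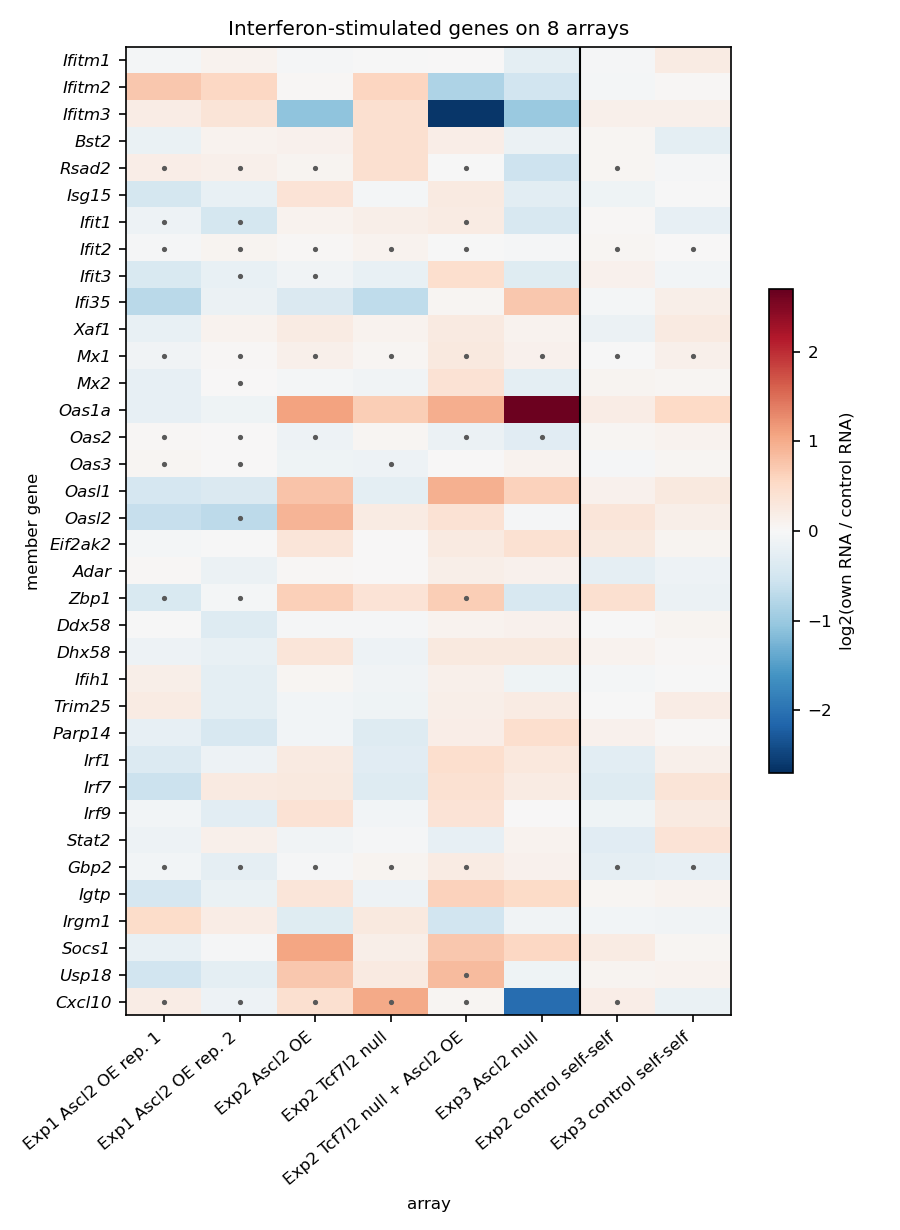
Log2 ratio of own RNA over control RNA (colour) for the 36 members that passed the filter on dim genes (rows, grouped by family) on the 6 arrays of modified organoids and, right of the line, the 2 self-self arrays (columns). Grey dots mark values with a channel not well above background; the darkest cells are Ifitm3 with Tcf7l2 null and Ascl2 overexpression at -2.63, Oas1a with Ascl2 null at 2.65 and Cxcl10 with Ascl2 null at -2.06.

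The genes most often used as a read-out of interferon exposure had ratios close to the control at these settings, from mostly dim signals. Isg15, a ubiquitin-like modifier, was -0.48 and -0.20 in experiment 1, 0.38, -0.06 and 0.25 in experiment 2 and -0.29 with Ascl2 null, against -0.12 and -0.01 on the self-self arrays. Ifit1, which binds foreign RNA, and its partner Ifit3 ranged from -0.47 to 0.23 and from -0.40 to 0.46 over the 6 arrays, and Ifit2, dim on most arrays, from -0.04 to 0.10. Mx1 and Mx2, dynamin-like GTPases that trap viral components, ranged from -0.10 to 0.26 and from -0.26 to 0.39. None of these 6 reached 2-fold on any array, where 0.704% to 3.46% of all genes did. Their signals were mostly near the offset of 50 that the background correction adds, which draws ratios towards 0. Isg15 stood at 73.3 against 103 on replicate 1 of experiment 1. Ifit3 with Ascl2 overexpression in experiment 2 was well above background in neither channel, at -0.10 here and 0.74 by the scanner's own ratio. Xaf1, a promoter of apoptosis, ranged from -0.20 to 0.24. Ifi35 varied more, with -0.72 and -0.16 in experiment 1, -0.39, -0.69 and 0.06 in experiment 2, and 0.72 with Ascl2 null, against -0.06 and 0.15 on the self-self arrays.

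Among the sensors, Ddx58 (RIG-I), Ifih1 (MDA5) and Dhx58 (LGP2) lay between -0.35 and 0.33 on all 6 arrays. Trim25, the ubiquitin ligase associated with RIG-I, ranged from -0.26 to 0.22. Zbp1, a sensor of Z-form nucleic acid, ranged from -0.44 to 0.67, and its self-self values of 0.43 and -0.16 were also apart. Eif2ak2, the kinase PKR, reached 0.42 in Ascl2 null organoids, Adar, which edits double-stranded RNA, stayed within -0.16 and 0.15, and Parp14, an ADP-ribosyltransferase, ranged from -0.42 to 0.46. Of the transcription factors, Irf1 ranged from -0.36 to 0.45, Irf7 from -0.59 to 0.41, Irf9 from -0.29 to 0.39 and Stat2 from -0.21 to 0.14. For Irf7 and Stat2 the self-self arrays alone ran from -0.34 to 0.36 and from -0.31 to 0.37. All 6 ratios of Stat2 lay within that technical spread, and 3 of 6 for Irf7.

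The GTPases of cell-autonomous defence did not move together. Igtp, also known as Irgm3, was -0.45 and -0.17 in experiment 1, 0.34, -0.14 and 0.61 in experiment 2, and 0.53 with Ascl2 null, against 0.06 and 0.10 on the self-self arrays. Irgm1, which governs the effector GTPases of the same family, ran the other way, with 0.50 and 0.20 in experiment 1, -0.33, 0.27 and -0.52 in experiment 2 and -0.09 with Ascl2 null, against -0.06 and -0.10 on the self-self arrays. Igtp and Irgm1 had opposite signs on all 6 arrays. They had the same sign on 1 array under each of 3 alternatives, which were median centring with Igtp at 0.12 in Tcf7l2 null organoids, the authors' deposited table with Irgm1 at -0.10 on replicate 1, and subtraction of the self-self array with Irgm1 at 0.01 in Ascl2 null organoids. The dimmest Irgm1 probe was above background in no channel and pulled the mean towards 0; the other 2 probes gave -0.82 and -0.76 with Tcf7l2 null and Ascl2 overexpression. Gbp2 lay between -0.24 and 0.22 and was dim.

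Whether the module as a whole moved was read from its median and from the number of the 36 members above 0, beside the same over all genes. The median of the members was -0.13 on both arrays of experiment 1, 0.08 with Ascl2 overexpression, 0.00 with Tcf7l2 null and 0.23 with both in experiment 2, and 0.05 with Ascl2 null. On the self-self arrays it was 0.03 and 0.07, and the median of all genes lay between -0.01 and 0.01 on every array. In experiment 1, 10 and 14 members lay above 0, beside 52.3% and 48.9% of all genes. In experiment 2, 23 members lay above 0 with Ascl2 overexpression (51.1% of all genes), 19 with Tcf7l2 null (50.9%) and 29 with Tcf7l2 null and Ascl2 overexpression (50.8%). In Ascl2 null organoids 19 members lay above 0, beside 50.2% of all genes. The self-self arrays had 19 and 25 members above 0, beside 50.6% and 49.9% of all genes. An excess of members above 0 thus also appeared where the RNAs were the same, on the self-self array of experiment 3. The self-self array of experiment 2, on the slide with 23 and 29 members above 0, had 19 of 36. Members share regulators and are not independent of each other.

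**Figure D3:**
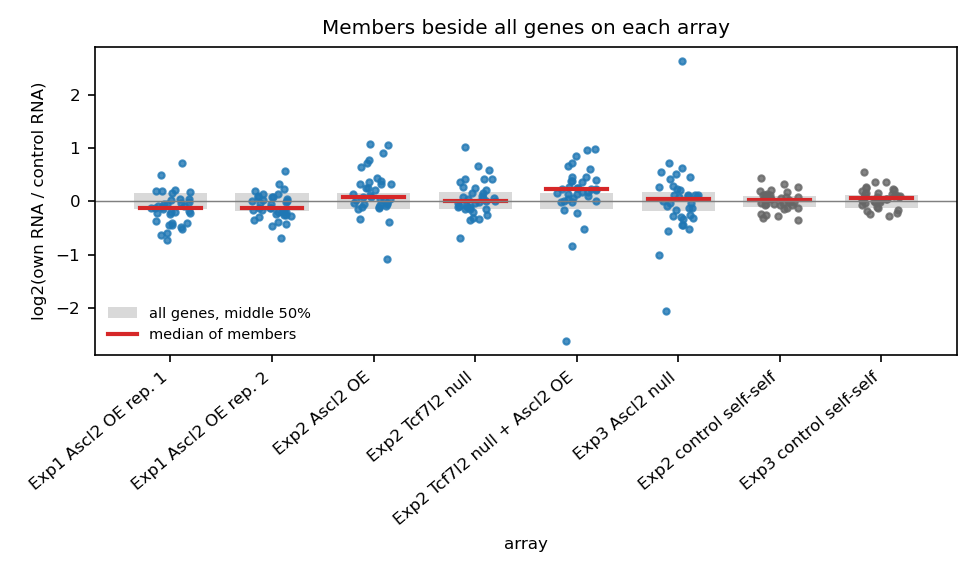
Log2 ratio of own RNA over control RNA (vertical axis) on each array (horizontal axis), with 1 point for each of the 36 members, the median of the members as a red line and the middle 50% of all 19193 genes as a grey band. The member median is -0.13 on both arrays of experiment 1 and 0.23 with Tcf7l2 null and Ascl2 overexpression, and grey points mark the self-self arrays.

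Counts of members at or beyond 2-fold depended on how the ratios were made. With the ratios used here none was found on either array of experiment 1, where 0.704% and 1.04% of all genes lay that far from 0. With Ascl2 overexpression in experiment 2 there were 3 (1.89% of all genes): Oas1a and Socs1 higher (1.06% of all genes were) and Ifitm3 lower (0.834%). With Tcf7l2 null there was 1, Cxcl10, on the higher side (0.97% of all genes in either direction, 0.443% higher and 0.527% lower). With Tcf7l2 null and Ascl2 overexpression there was 1, Ifitm3, on the lower side (3.06% of all genes in either direction, 1.16% higher and 1.9% lower). With Ascl2 null there were 3 (3.46% of all genes): Oas1a higher (2.08%), and Ifitm3 and Cxcl10 lower (1.38%). The self-self arrays held none, beside 0.0157% and 0.104% of all genes. Over the alternatives the counts ran from 0 to 2 in experiment 1 and 1 to 7 with Ascl2 overexpression in experiment 2. They ran from 0 to 2 with Tcf7l2 null, 1 to 8 with both and 2 to 7 with Ascl2 null. With both, the scanner's own ratio gave 8, against 6 from the authors' deposited table. The share of all genes was taken only with the ratios used here, so counts from the alternatives cannot be set beside these percentages. The 2-fold values were 1 array each and have no replicate check, and Ifitm3 in Ascl2 null organoids and Cxcl10 in Tcf7l2 null organoids lay just past the limit, while Oas1a with Tcf7l2 null and Ascl2 overexpression, at 0.98, and Oasl1 on the same array, at 0.96, lay just inside it.

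The replicated comparison was Ascl2 overexpression, measured on 3 arrays. In the limma fit with a shared effect, none of the 36 members passed an adjusted p of 0.05, beside 0.0938% of all genes (18 of 19193). This effect averages both experiments, in which Oasl2, Usp18 and Ifitm3 lay on opposite sides of 0, so their ratios partly cancel in it. The smallest adjusted p among members was 0.246, for Parp14 at -0.27 ± 0.08 (SE), which was below 0 on all 3 arrays. At an unadjusted p under 0.05 there were 4 members beside 12.7% of all genes, 1 of them higher (5.98% of all genes) and 3 lower (6.72%). Ifi35, at -0.39 ± 0.12 (limma adjusted p = 0.253), was also below 0 on all 3 arrays. Ifitm2, at 0.46 ± 0.14 (limma adjusted p = 0.261), was above 0 on all 3.

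Within the dye swap of experiment 1, limma called 173 genes (0.901%) and none of the members, while 10 members had an unadjusted p under 0.05, beside 14.8% of all genes. Of these 2 were higher (6.85% of all genes) and 8 lower (7.98%). The nearest to the threshold were Ifitm2 at 0.64 ± 0.10 (SE, limma adjusted p = 0.0587) and Oasl2 at -0.66 ± 0.12 (limma adjusted p = 0.0720). Oasl1 followed at -0.42 ± 0.12 (limma adjusted p = 0.185), as did Usp18 at -0.40 ± 0.12 (limma adjusted p = 0.186). On both arrays 18 members lay below 0, where 26.9% of all genes did, and 6 lay above 0, where 28.1% of all genes did. The 6 were Ifitm2, Ifitm3, Irgm1, Rsad2, Oas2 and Oas3. Without the dye term in the model Ifitm2 passed (limma adjusted p = 0.0227), and its adjusted p ran from that value to 0.623 over all settings. In the model without that term 16.0% of all genes had an unadjusted limma p under 0.05, beside 12 of the 36 members. No label says whether the 2 replicates were separate cultures, so these p-values measure the spread between arrays, which may be technical.

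The arrays labelled Ascl2 overexpressing of experiments 2 and 1 were set against each other in the same fit. Experiment 2 minus experiment 1 was -1.40 ± 0.21 (SE) for Ifitm3 (limma adjusted p = 0.0677) and 1.43 ± 0.22 for Oasl2 (limma adjusted p = 0.0728). It was 1.15 ± 0.22 for Usp18, 1.15 ± 0.23 for Socs1 and 1.12 ± 0.23 for Oasl1, with limma adjusted p-values of 0.123, 0.142 and 0.152. None passed, beside 0.72% of all genes that did, and 12 members had an unadjusted p under 0.05, beside 8.38% of all genes. Of these 9 were higher in experiment 2 (4.49% of all genes) and 3 lower (3.9%). The fit set a single array of experiment 2 against technical spread. Without the dye term, Ifitm3, Oasl1, Oasl2, Socs1 and Usp18 passed, and with a smaller normexp offset Oasl2 and Usp18 did. At these settings 10.9% and 8.68% of all genes had an unadjusted limma p under 0.05, beside 13 and 9 of the 36 members. Control culture and slide differ between the experiments together, so their parts cannot be told apart.

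Markers of other epithelial lineages also differed between these arrays. The median of 6 enteroendocrine markers was -0.93 and -0.98 in experiment 1, with none of the 6 above 0, and 2.66, 0.32 and 3.05 in experiment 2, with 5, 4 and 6 above 0. It was 3.25 in Ascl2 null organoids, with all 6 above 0, against 0.10 and -0.07 on the self-self arrays. The median of 4 tuft cell markers was -0.20 and -0.25 in experiment 1, then 0.98, -0.06 and 1.22 in experiment 2, and 0.30 with Ascl2 null, against 0.10 and 0.00 on the self-self arrays. The enteroendocrine and tuft cell medians were thus below the control on the arrays of experiment 1, as were Oasl1, Oasl2 and Usp18. On the arrays of experiment 2 labelled Ascl2 overexpressing these medians and members were above it. With Ascl2 null both medians were above the control, where Oasl1 was 0.63 but Oasl2 and Usp18 were -0.03 and -0.12. With other settings the tuft cell median on replicate 1 of experiment 1 reached 0.11. The median of the 3 Paneth cell markers measured ran the other way, at 0.43 and 0.35 in experiment 1, -1.85, -0.32 and -2.07 in experiment 2 and 0.15 with Ascl2 null, against 0.05 and 0.56 on the self-self arrays. Over the settings its median on replicate 2 of experiment 1 went as low as -0.10 and that with Tcf7l2 null as high as 0.14. The 8 enterocyte markers had a median of -0.65 and -0.89 in experiment 1 and -0.59, -0.63 and 0.06 in experiment 2, and with Ascl2 null 6 of the 8 lay above 0, with 4 of them past 2-fold. The part of these lineages in the members' values was not tested.

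**Figure D4:**
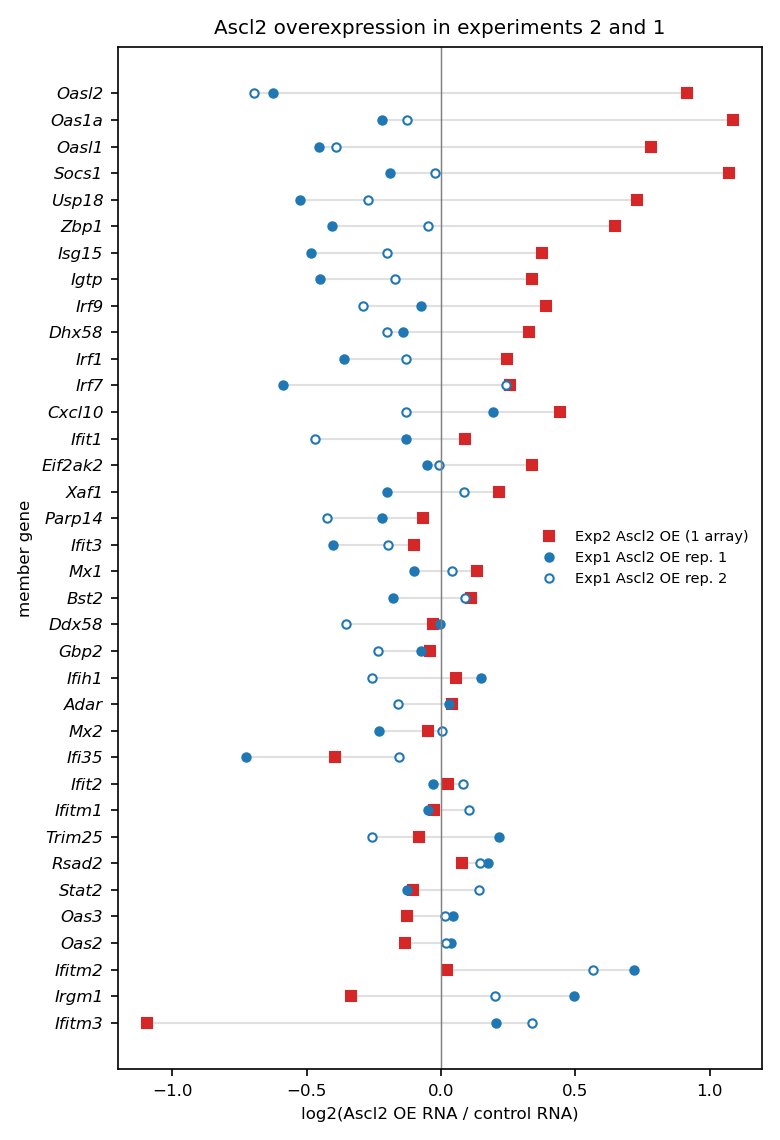
Log2 ratio of Ascl2 overexpression RNA over control RNA (horizontal axis) for the 36 members (vertical axis, ordered by experiment 2 minus the mean of experiment 1), with red squares for the single array of experiment 2 and blue circles for the 2 dye-swapped arrays of experiment 1. Oasl2, Oas1a, Oasl1, Socs1 and Usp18 lie above 0 in experiment 2 and below 0 on both arrays of experiment 1, and Ifitm3 the other way round, except that at least 1 alternative moved a replicate of Oas1a, Oasl1, Socs1 and Ifitm3 across 0.

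Within experiment 2 the control, the dye orientation and the slide are shared, so arrays can be subtracted from each other. Tcf7l2 null with Ascl2 overexpression minus Tcf7l2 null had a member median of 0.22, with 27 members above 0 and 9 below (51.8% of all genes were above). Oasl1 was higher by 1.22, beside 2.52% of all genes at or beyond 2-fold on that side. Ifitm3, at -3.06, and Ifitm2, at -1.42, were lower, beside 4.01% of all genes. Tcf7l2 null with Ascl2 overexpression minus Ascl2 overexpression had a member median of 0.05, with 21 members above 0 and 15 below (50.2% of all genes were above). Ifitm3 was lower there too, at -1.54, the only member past 2-fold (1.28% of all genes on that side). With 1 array each, these differences have no test.

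**Figure D5:**
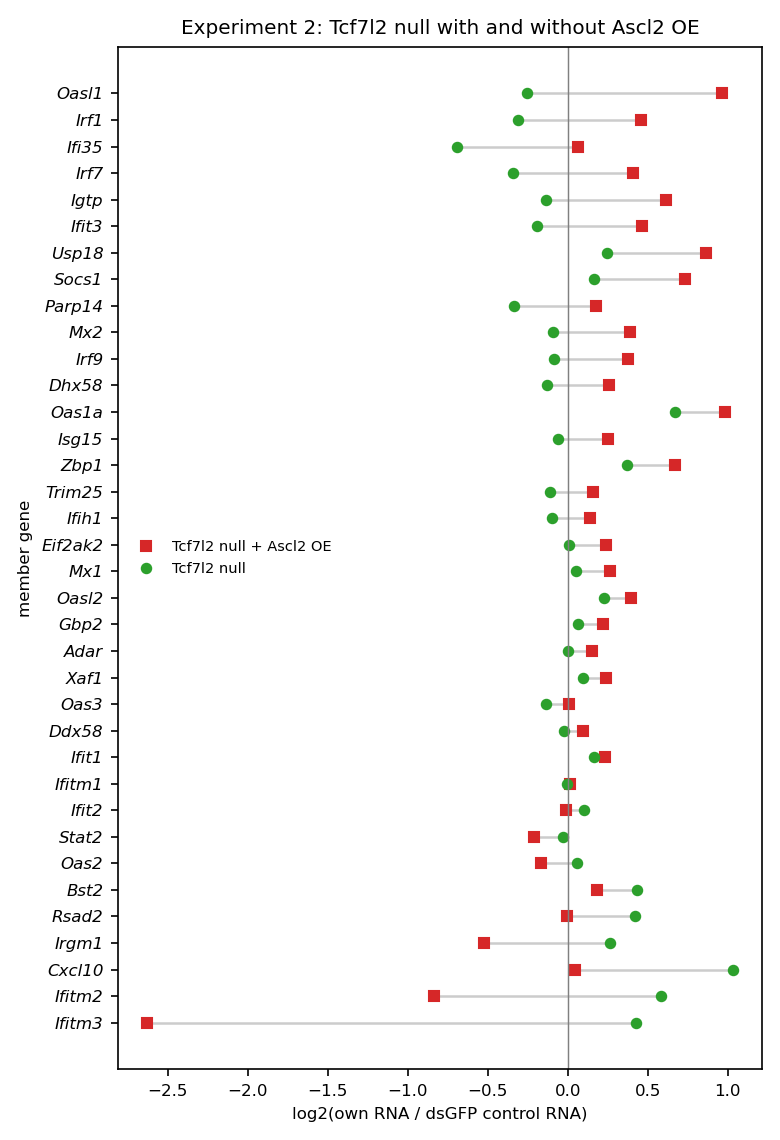
Log2 ratio of own RNA over dsGFP control RNA (horizontal axis) for the 36 members (vertical axis, ordered by the difference), with red squares for Tcf7l2 null with Ascl2 overexpression and green circles for Tcf7l2 null, 1 array each. The squares lie right of the circles for 27 members, and Ifitm3 and Ifitm2 lie farthest to the left of them.

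The rest of the pathway was read from a list of 79 genes, of which 71 were on the array and 63 passed the filter. Of the interferon genes on the array, Ifnb1, Ifng and Ifna4 did not pass it, while Ifna2 and the type III interferon Il28b did. Ifna2 ranged from -0.03 to 0.20 on the 6 arrays, and Il28b from -0.39 to 0.37. Of the receptor kinases, Jak1 ranged from -0.23 to 0.12, Jak2 from -0.51 to 0.29 and Tyk2 from -0.21 to 0.71, where the self-self arrays of Tyk2 gave -0.62 and 0.71. Median ratios of the 63 genes lay between -0.08 and 0.11 on the same arrays, against -0.03 and 0.01 on the self-self arrays. Limma called none of them in the shared Ascl2 effect, 1 in experiment 1 and 1 in the difference between experiments, and both were Psmb8.

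Psmb8, an interferon-inducible catalytic subunit of the immunoproteasome, had ratios of -1.49 and -1.07 in experiment 1, 1.73, -0.50 and 2.28 in experiment 2, and 4.53 in Ascl2 null organoids, against 0.14 and 0.01 on the self-self arrays. It fell in experiment 1 by 1.28 ± 0.13 (SE, limma adjusted p = 0.0329), and experiment 2 minus experiment 1 was 3.08 ± 0.24 (limma adjusted p = 0.0120). Without replicate 1 the adjusted p was 0.257 in experiment 1 and 0.117 for the difference, and without replicate 2 it was 0.358 in experiment 1. Over 14 settings the call held in 6 for experiment 1 (limma adjusted p from 0.00861 to 0.544) and in 9 for the difference (from 0.00100 to 0.130). Its partner Psmb9 was -0.24 and -0.15 in experiment 1, 1.04, -0.08 and 1.24 in experiment 2 and 1.60 with Ascl2 null. The other genes at or beyond 2-fold were all in Ascl2 null organoids, namely the GTPase Ifi47 at 1.26, the exonuclease Isg20 at -1.28 and the chemokine Ccl5 at -1.42.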

How the data were processed

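The members and gene lists were chosen with earlier results of these data known. Expression was measured on 8 Agilent 2-colour mouse arrays, with 500 ng of RNA labelled by a Quick Amp kit, per the labels' protocols. The deposited scanner files hold spot intensities, made with Agilent Feature Extraction 10.5.1.1 and annotated on mm9, per the file headers. A log10 ratio of Cy5 over Cy3 processed signals, also in those files per the file headers, was an alternative. The authors' deposited table holds log2 ratios. By comparison with the scanner ratios it runs as Cy5 over Cy3, except that replicate 2 of experiment 1 is turned (correlation -0.85), its centring is unstated, and its column medians were -0.01 to 0.03. No deposited column was left without a sample.

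Median spot and local background intensities were corrected with normexp (offset 50) and normalised by loess within each array (R 4.3.3, limma 3.58.1). limma's default estimator raised the median spot of experiment 1 replicate 2 to 2923 in Cy5 and 2640 in Cy3, against background-subtracted medians of 79.0 and 68.5, so the parameters came from the 153 negative control spots of each array. The default was kept as an alternative. Loess sets most genes near 0, so a shift shared by every gene would not be visible. Outlier spots were left out, spots of a probe averaged, and the 41174 probes averaged by gene name. Genes had to be well above background in a channel on 2 or more arrays.

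limma (lmFit and eBayes) was fitted over all genes and all 8 arrays with a dye term and either a shared Ascl2 overexpression effect (3 residual degrees of freedom) or an effect per experiment (2), with two-sided p-values and Benjamini-Hochberg adjustment at 0.05. The fit was tested on simulated data, with no result given here. Ratios of single arrays carry no dye term and no p-value. Each experiment lay on its own slide, so slide and experiment cannot be told apart. Members at or beyond 2-fold on an array, with their gene families, were given in full, as were other pathway genes at or beyond 2-fold. Alternatives changed the background correction, normalisation, source of values, filter, probes, dye term and replicates. The number of arrays limits the precision.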

Additional observations from a re-analysis of the deposited data

Results flagged for a closer look

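The difference between experiment 2 and experiment 1 in organoids labelled Ascl2 overexpressing passed the limma test for 138 of 19174 genes (0.72%, Benjamini-Hochberg adjusted p under 0.05), which is a difference between groups under the same contrast. None of the 36 members was among them. Ifitm3 came nearest, at -1.40 ± 0.21 (SE, limma adjusted p = 0.0677).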

How the results depend on the processing

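None of the 8 single-array values at or beyond 2-fold and the 6 tested values followed through the alternatives changed direction. Smaller ratios did: of 216 member ratios on the 6 arrays, median centring changed the sign of 42, the largest at 0.45, and subtracting the self-self array changed 21 of 144, the largest at 0.37, among them Socs1 and Oasl2 with Tcf7l2 null, at -0.06 and -0.11. The authors' deposited table changed 18 of 202, and the other 9 alternatives 0 to 26. The member median stayed below 0 in experiment 1 and above 0 in experiment 2 with Ascl2 overexpression, alone or with Tcf7l2 null, under all alternatives run, whereas for Ascl2 null and Tcf7l2 null it lay on either side of 0. Values follow where they moved beyond the spread of the self-self medians (SD 0.024) or, for counts, by over 1.5 times; main medians were -0.11 in experiment 1, then 0.084, 0.0034 and 0.23 in experiment 2, 0.050 for Ascl2 null, and 0.22 and 0.054 for the double condition less Tcf7l2 null and less Ascl2 overexpression. The cause of these changes was not tested. 

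Without the dye term 150 genes passed in the shared effect (18 with it), 504 and 1 member in experiment 1 (173 and 0), and 297 and 5 members in the difference between experiments (138 and 0). A dye term per slide left 0 genes in the shared effect, where 18.5% of genes had an unadjusted limma p under 0.05; it could not be fitted for the other tests, with no residual degrees of freedom. Without replicate 1 or 2 of experiment 1 the counts were 0 in the shared effect, 1 to 3 in experiment 1 and 7 to 103 in the difference; a lone array is assumed to vary like the others. With no background correction 3 and 74 genes passed in experiment 1 and the difference. With offset 10, 10 genes passed in the shared effect, and 1 and 2 members in experiment 1 and the difference. At that offset 12.6% and 8.68% of all genes had an unadjusted limma p under 0.05 in experiment 1 and the difference. Median centring left 0, 1 and 0 genes, the scanner ratio 0, 0 and 81, the default normexp estimator 0, 0 and 54, and the values deposited by the authors left none (0) in the shared effect and 15 in experiment 1. With no filter 0 and 19 genes passed in experiment 1 and the difference. The brightest probe gave 267 genes in experiment 1, and probes above background only gave 37 in the shared effect and 318 with 1 member in experiment 1.

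Medians of the members became 0.030 for Tcf7l2 null and -0.0021 for Ascl2 null less the dye term, and 0.13 for Ascl2 overexpression in experiment 2, 0.18 with Tcf7l2 null added and -0.078 for Ascl2 null less the self-self array. Over the 23 members above background in all channels, a choice made after seeing the data as was the default estimator, they were 0.11, -0.032 and 0.18 in experiment 2 and 0.12 for Ascl2 null. With no background correction Tcf7l2 null with Ascl2 overexpression gave 0.16 and the differences 0.17 and 0.0095. Offset 10 gave -0.16 in experiment 1, 0.14 for Ascl2 overexpression in experiment 2, 0.30 with Tcf7l2 null added, and 0.32 for the difference from Tcf7l2 null. Median centring gave -0.067 in experiment 1, 0.042, 0.070 and 0.19 in experiment 2, -0.038 for Ascl2 null and 0.10 for the difference from Tcf7l2 null. The scanner ratio gave -0.23, then 0.30, -0.025 and 0.38, then 0.089 and 0.45, in the same order. The authors' deposited table gave -0.21, then 0.31, -0.03 and 0.50, 0.14 for Ascl2 null, and differences of 0.68 and 0.12. No filter gave -0.057 in experiment 1, 0.055 for Ascl2 overexpression in experiment 2, 0.17 with Tcf7l2 null added and 0.16 for the difference from Tcf7l2 null. Genes above background on all arrays gave -0.14 in experiment 1, -0.029 for Tcf7l2 null, 0.097 for Ascl2 null and 0.25 for that difference. The brightest probe gave -0.14 in experiment 1, 0.15 for Ascl2 overexpression in experiment 2 and 0.015 for Ascl2 null. The default normexp estimator gave -0.051 in experiment 1, 0.059 for Ascl2 overexpression in experiment 2, 0.18 with Tcf7l2 null added, and differences of 0.19 and 0.085.

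Members at or beyond 2-fold numbered 0 to 2 in experiment 1 and 1 to 7 with Ascl2 overexpression in experiment 2. They numbered 0 to 2 with Tcf7l2 null, 1 to 8 with both and 2 to 7 with Ascl2 null. The share of all genes past 2-fold was not taken under the alternatives. Ifitm3 ran from -2.77 to -2.53 with Tcf7l2 null and Ascl2 overexpression, Oas1a from 2.10 to 3.05 and Cxcl10 from -3.13 to -1.81 with Ascl2 null, all past 2-fold, and Cxcl10 with Tcf7l2 null from 0.78 to 2.33. No paired analysis was possible because the groups compared share fewer than 2 replicate numbers. Signal near background limits the dim members, whose ratios are drawn towards 0 by the offset.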
